A study of Mus musculus with 12 samples.

Results

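The 9 genes described here encode the insulin-like growth factor (IGF) axis of RIP1Tag2 mouse pancreatic neuroendocrine tumors (PanNETs) and the neighbouring imprinted RNA H19. They are the ligands Igf2 and Igf1, the receptors Igf1r, Igf2r and Insr, the binding proteins Igfbp3 and Igfbp5, the mRNA-binding protein Igf2bp2, and H19. Their Ensembl identifiers were looked up by gene symbol among the 38924 identifiers of the count tables, and all 9 were among the 16645 genes that passed the filter on low counts. The list was chosen on measured values, namely the levels of these genes in the same tumors. Levels and differences of these 9 genes are therefore given as a description with standard errors and without a test, whereas other genes were tested in a fit across all genes. Levels are normalized CPM, that is, read counts scaled to a common library size.

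RNA-seq had been performed on 12 PanNETs of C57Bl6 mice carrying the RIP1Tag2 transgene, in which an insulin promoter drives a viral oncoprotein in pancreatic beta cells. There were 4 tumors from control mice given saline (control tumors 1, 2, 3 and 4), 4 from mice given sunitinib alone (sunitinib tumors 5, 6, 8 and 12), and 4 from mice given rapamycin together with sunitinib (R+S tumors 4, 5, 7 and 10). Sunitinib inhibits the VEGF and PDGF receptor tyrosine kinases, and rapamycin inhibits the mTOR kinase. In every group, treatment lasted 4 days and started when the mice were 15.5 weeks old. The labels do not say whether the tumors of a group came from separate mice. All 4 control labels shared 1 prefix, as did 3 of the 4 sunitinib labels and 2 of the 4 R+S labels, and the treatment cannot be told apart from the prefix. The p-values below treat the 4 tumors of a group as independent. Sunitinib tumor 6 stood apart from the other 11 tumors, with the lowest level of 10 of 12 beta cell markers, and values that rest on it are given with and without it.

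IGF2 and IGF1 are secreted growth factors that act through the IGF1 receptor, and IGF2 also through the insulin receptor. The IGF2 receptor takes IGF2 up for degradation, and the binding proteins hold both ligands in blood and tissue and modulate their access to receptors. Igf2 is imprinted and expressed mainly from the paternal allele before birth, whereas the adjacent H19 RNA is expressed from the maternal allele. Igf2 is known to be switched on in the islet lesions of this mouse model, where it acts as a survival factor for the tumor cells.

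A few features stood out among the 9 genes. Igfbp3 was 12.0-fold lower in the sunitinib group and 9.29-fold lower in the R+S group than in the control group, by the ratio of group means. Igf2 was among the most abundant transcripts of 11 tumors, whatever the treatment, and was nearly absent from sunitinib tumor 6. Igf1r was lower in all 4 sunitinib tumors than in any control or R+S tumor. Between sunitinib and control, 2 of the 9 genes had groups that did not overlap (Igf1r and Igfbp3), beside 10.9% of all genes tested. For R+S against control there were 3 (Insr, Igfbp3 and Igfbp5, beside 23.5%), and for R+S against sunitinib 2 (Igf1r and Insr, beside 18.6%). As the genes were chosen with these contrasts in view, nothing is read from the counts. Of all genes tested, 4.48%, 4.16% and 7.21% passed the threshold in the 3 comparisons in that order (edgeR quasi-likelihood test, adjusted p under 0.05). The last of these shares is unstable, since 0 to 2861 genes passed when 1 tumor was left out.

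**Figure D1:**
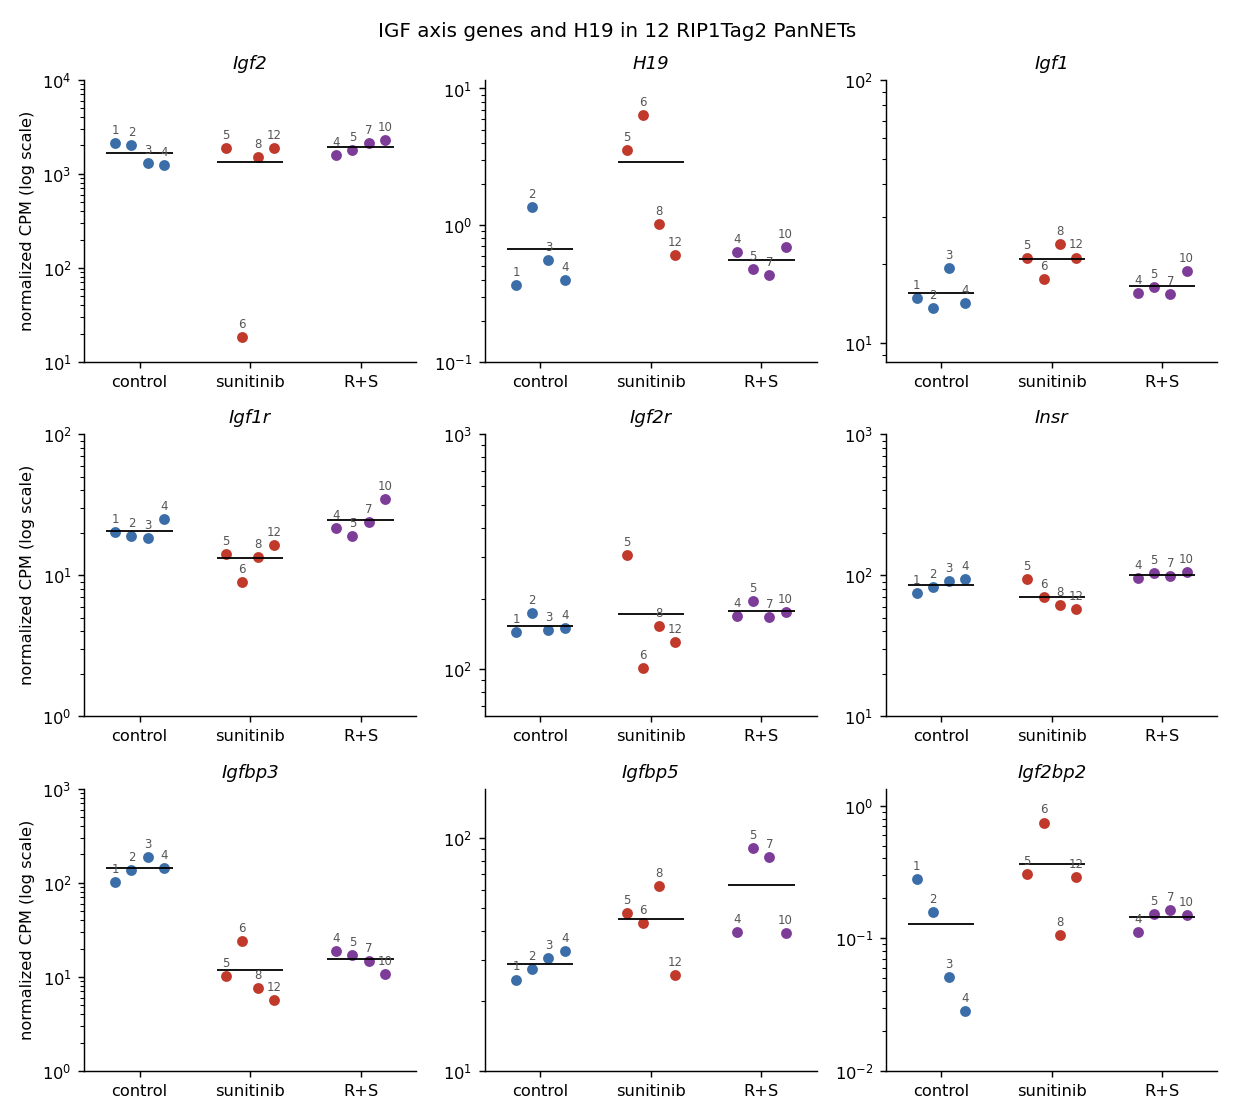
Normalized CPM (log scale) of the 9 genes in each of 12 tumors, with one panel per gene and tumors numbered as in their labels. Points are tumors, and lines are group means of 4 tumors. Igfbp3 lies between 101 and 187 CPM in control tumors and at 24.0 CPM or lower in all 8 treated tumors, and Igf2 lies at 1250 CPM or more in every tumor except sunitinib tumor 6.

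Of the transcripts that passed the filter and had an annotated length, 16469 in all, Igf2 ranked between 42nd and 76th in the control tumors by CPM per kilobase of exon. Igf2 (ENSMUSG00000048583) lies on the minus strand of chromosome 7, from 142650766 to 142666816 (GRCm38, GENCODE M21). Its level was 2139, 2008, 1303 and 1250 CPM in control tumors 1 to 4. It was 1887, 18.3, 1515 and 1894 CPM in sunitinib tumors 5, 6, 8 and 12. It was 1578, 1805, 2120 and 2276 CPM in R+S tumors 4, 5, 7 and 10. Apart from sunitinib tumor 6, the 3 groups overlapped. The R+S to control difference was 0.22 ± 0.81 (log2 fold change ± SE from the fit, n = 4 per group), and the sunitinib to control difference was -0.33 ± 0.81. Leaving out sunitinib tumor 6 brought the latter to 0.08 ± 0.22 and the R+S to sunitinib difference from 0.55 ± 0.81 to 0.14 ± 0.22. The R+S to control difference was then 0.22 ± 0.20, since the groups share the estimate of spread.

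Sunitinib tumor 6 had 662 reads on Igf2, against 44338 to 99991 in the 4 control tumors, and its level was 68.3-fold below that of the lowest other tumor. Igf2os, an RNA transcribed from the opposite strand of the Igf2 locus, was 60.2-fold below its lowest level elsewhere. The counts of both transcripts were thus low together. Igf2os overlaps part of the Igf2 gene, and whether the counting used strand is not given, so its counts may hold reads of Igf2. It had 3.17 reads per 100 reads of Igf2 in this tumor, within the range of the other 11 tumors (2.21 to 5.84). Of 12 beta cell markers, 10 were lower in sunitinib tumor 6 than in any of the other 11 tumors, by a median of 11.9-fold over the 12 markers. The exceptions were Chga and Pcsk1, which encode a granule protein and a prohormone convertase of neuroendocrine cells. Pdx1, a transcription factor of beta cells, was 37.1-fold below its lowest level elsewhere, and Ins2, the insulin gene that neighbours Igf2, stood at 784 CPM against 10612 to 43805 CPM. The 12 markers summed to 4859 CPM in this tumor, against 40928 to 64830 CPM in the control tumors. Igf2 was further below its lowest level elsewhere than any of the 12 markers. It stood at 2.33 CPM per 100 CPM of Ins2, against 4.32 to 17.8 CPM in the other 11 tumors. Low Igf2 thus went together with low insulin and beta cell transcripts in this tumor, though not in the same proportion. The part of one in the other was not tested. In bulk tumor RNA, fewer cells of a type and less RNA per cell cannot be told apart.

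**Figure D2:**
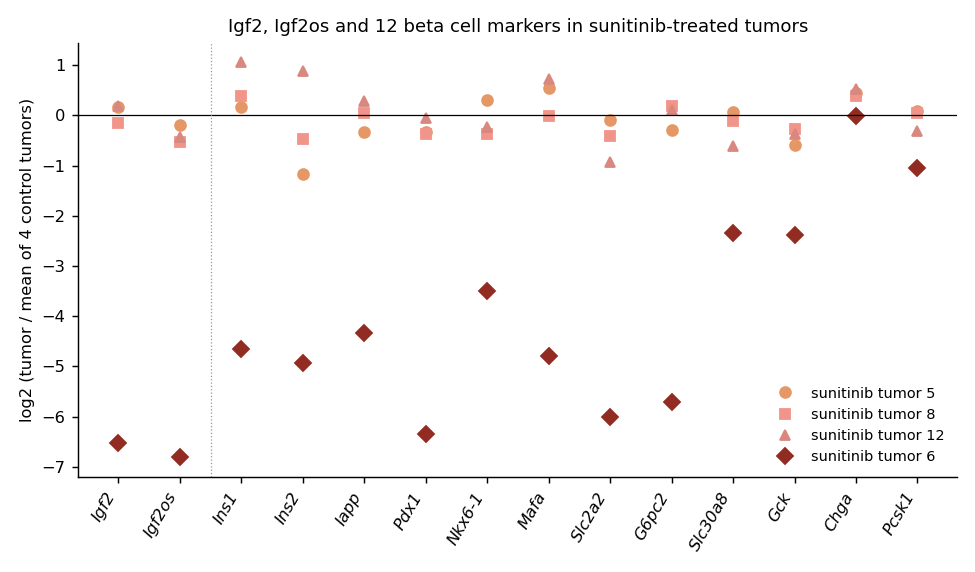
Level of Igf2, Igf2os and 12 beta cell markers in the 4 sunitinib tumors, each as the log2 ratio to the mean of the 4 control tumors (0 is the control mean). Sunitinib tumor 6 (diamonds) lies below the other 3 for all genes shown, and its ratio is -6.52 for Igf2 and -6.81 for Igf2os, whereas its Chga is at -0.01.

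The Igf2 transcript also carries a microRNA gene, Mir483, in an intron, and the first exon of H19 carries Mir675. Their mature products were not measured by poly(A) libraries, and the hairpin genes were counted with at most 23 reads (Mir483) and 0 reads (Mir675) per tumor. They are shown because they are further RNA products of the Igf2 and H19 loci. The mature sequences are from RefSeq (GRCm38.p6), and capitals mark the seed, bases 2 to 8, by which a microRNA recognises its targets. The 4 seeds differ from each other.
miR-483-5p (Igf2): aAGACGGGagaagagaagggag
miR-483-3p (Igf2): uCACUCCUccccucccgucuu
miR-675-5p (H19): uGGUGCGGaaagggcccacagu
miR-675-3p (H19): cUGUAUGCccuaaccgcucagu

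H19 (ENSMUSG00000000031; chromosome 7, 142575529 to 142578143, minus strand), a long noncoding RNA, was scarce throughout, with between 14 and 233 reads per tumor. It stood at 0.36, 1.35, 0.56 and 0.39 CPM in control tumors 1 to 4. It stood at 3.57, 6.44, 1.03 and 0.61 CPM in sunitinib tumors 5, 6, 8 and 12. It stood at 0.64, 0.48, 0.44 and 0.69 CPM in R+S tumors 4, 5, 7 and 10. Sunitinib tumors 5 and 6 were above all other tumors, whereas sunitinib tumors 8 and 12 lay within the range of the control tumors. The highest H19 and the lowest Igf2 were found in the same tumor, sunitinib tumor 6, but sunitinib tumor 5 had high H19 with Igf2 at the level of the other tumors. The sunitinib to control difference was 2.13 ± 0.69 on the log2 scale, and 1.39 ± 0.60 without sunitinib tumor 6. The R+S to sunitinib difference was -2.37 ± 0.69, and -1.63 ± 0.61 without that tumor. Of the exon bases of H19, 3.41% are shared with Mir675 on the same strand, where reads cannot be assigned to either gene.

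Igf1 (ENSMUSG00000020053, chromosome 10), which encodes the other IGF ligand, was present at a far lower level than Igf2 in all tumors but sunitinib tumor 6. In that tumor Igf1 stood at 17.4 CPM, beside 18.3 CPM for Igf2. The Igf1 level ranged from 13.5 to 19.3 CPM in control tumors and from 15.3 to 18.8 CPM in R+S tumors. In sunitinib tumors it ranged from 17.4 CPM in tumor 6 to 23.7 CPM. The sunitinib group overlapped the other groups only through tumor 6. The log2 fold change of sunitinib to control was 0.43 ± 0.15, and 0.50 ± 0.15 without that tumor. The R+S to sunitinib difference was -0.34 ± 0.15, and -0.41 ± 0.15 without it. Per kilobase of exon, the level of Igf2 in control tumors was 293 ± 81.0 CPM (SD, n = 4) and that of Igf1 was 1.56 ± 0.27 CPM.

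Among the receptors, Igf1r and Insr were lowest in the sunitinib group and highest in the R+S group. Igf1r (ENSMUSG00000005533, chromosome 7), the receptor tyrosine kinase for both ligands, stood at 20.3, 18.9, 18.3 and 25.2 CPM in control tumors 1 to 4. It stood at 14.1, 8.90, 13.4 and 16.5 CPM in sunitinib tumors 5, 6, 8 and 12. It stood at 21.8, 19.1, 23.7 and 34.6 CPM in R+S tumors 4, 5, 7 and 10. Every sunitinib tumor was below every control and R+S tumor, and the lowest value was that of sunitinib tumor 6. The difference of sunitinib to control was -0.64 ± 0.22, that of R+S to control 0.26 ± 0.22, and that of R+S to sunitinib 0.91 ± 0.23 (log2). Without sunitinib tumor 6, the first was -0.50 ± 0.20 and the last 0.76 ± 0.21.

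Insr (ENSMUSG00000005534, chromosome 8), the insulin receptor, stood at 74.4, 83.0, 91.1 and 94.6 CPM in control tumors 1 to 4. It stood at 93.5, 69.8, 61.3 and 58.0 CPM in sunitinib tumors 5, 6, 8 and 12. It stood at 96.1, 103, 98.8 and 106 CPM in R+S tumors 4, 5, 7 and 10. All R+S tumors were above all others, by a narrow margin over control tumor 4, and sunitinib tumor 5 lay among the control tumors. The R+S to control difference was 0.24 ± 0.15 and the R+S to sunitinib difference 0.52 ± 0.15 (log2).

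Igf2r (ENSMUSG00000023830, chromosome 17), the scavenging receptor of IGF2, was the most abundant of these 3 receptors per length. With all 12 tumors in the fit, it had the smallest differences between groups of the 3. Its level ranged from 144 to 173 CPM in control tumors and from 167 to 196 CPM in R+S tumors. In sunitinib tumors it ranged from 101 CPM in tumor 6 to 307 CPM in tumor 5, so that this group spanned both others. The 3 differences between groups were between 0.03 and 0.20 on the log2 scale, each with an SE of 0.27. Without sunitinib tumor 6, the sunitinib to control difference was 0.36 ± 0.24 and the R+S to sunitinib difference -0.15 ± 0.24. The former was then larger in size than that of Insr, which was -0.27 ± 0.16.

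**Figure D3:**
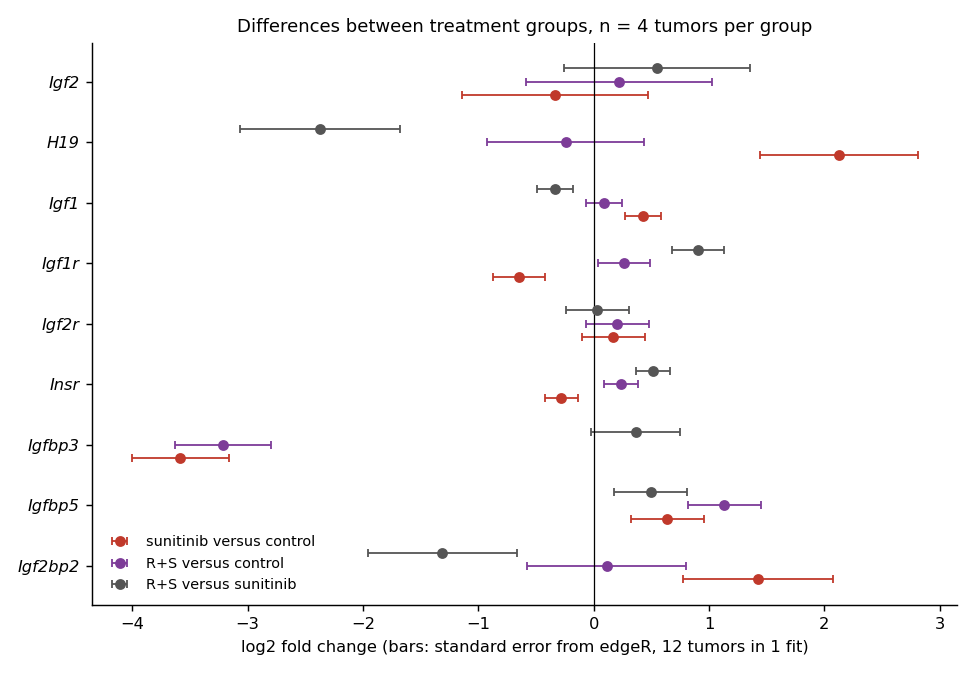
Log2 fold changes of the 9 genes in the 3 comparisons, with standard errors as bars (1 fit over 12 tumors, 4 per group). Igfbp3 is at -3.58 and -3.22 against control in the sunitinib and R+S groups, H19 is at 2.13 and Igf1r at -0.64 in sunitinib against control, and the error of Igf2 is wide, at 0.81.

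Igfbp3 had the largest difference to control of the 9 genes in both treated groups. Igfbp3 (ENSMUSG00000020427; chromosome 11, 7206086 to 7213923, minus strand) encodes the main carrier of IGFs in blood and is also made by vessel cells. Its level was 101, 137, 187 and 145 CPM in control tumors 1 to 4. It was 10.2, 24.0, 7.65 and 5.68 CPM in sunitinib tumors 5, 6, 8 and 12. It was 18.9, 16.9, 14.9 and 10.6 CPM in R+S tumors 4, 5, 7 and 10. The lowest control tumor was thus above the highest treated tumor, while the sunitinib and R+S groups overlapped. The log2 fold change to control was -3.58 ± 0.42 for sunitinib and -3.22 ± 0.42 for R+S, and with 1 tumor left out it ranged from -4.18 to -3.36 and from -3.35 to -3.06. The R+S to sunitinib difference was 0.37 ± 0.39, and 0.96 ± 0.26 without sunitinib tumor 6, which held the highest Igfbp3 level of its group. By level per length, the median rank of Igfbp3 among 16469 genes went from 875.5 in control tumors to 10109 in sunitinib and 8364 in R+S tumors.

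Endothelial transcripts moved with Igfbp3. The summed level of 12 endothelial markers ranged from 690 to 918 CPM in control tumors, from 66.8 to 116 CPM in sunitinib tumors and from 161 to 206 CPM in R+S tumors. Of these 12 markers, 11 fell in each treated group against control (edgeR quasi-likelihood test, adjusted p under 0.05), and 9 were higher in R+S than in sunitinib. Per 100 CPM of these markers, Igfbp3 stood at 14.7 to 20.3 CPM in control tumors (median 19.1), 6.59 to 21.2 CPM in sunitinib tumors (median 10.4) and 6.41 to 9.53 CPM in R+S tumors (median 9.21). Relative to endothelial transcripts, Igfbp3 was thus lower in all R+S tumors than in any control tumor, and sunitinib tumor 6 lay above all control tumors while the other 3 sunitinib tumors, at 12.3 or less, lay below. The ratio was not fixed in advance, and the part of endothelial cells in the Igfbp3 difference was not tested.

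**Figure D4:**
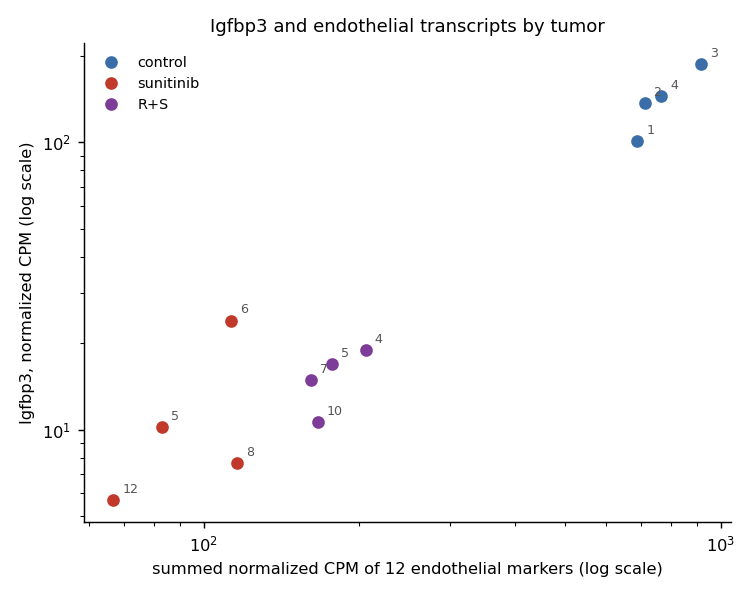
Igfbp3 (y axis, normalized CPM, log scale) against the summed level of 12 endothelial markers (x axis, normalized CPM, log scale) in each of 12 tumors. Control tumors lie between 690 and 918 CPM of endothelial markers with Igfbp3 at 101 CPM or more, and the 8 treated tumors lie at 206 CPM or less with Igfbp3 at 24.0 CPM or less.

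Igfbp5 had its highest group mean in R+S tumors, although the R+S and sunitinib groups overlapped. Igfbp5 (ENSMUSG00000026185; chromosome 1, 72857932 to 72874884, minus strand) encodes a secreted binding protein that also attaches to extracellular matrix. It stood at 24.7, 27.4, 30.5 and 32.6 CPM in control tumors 1 to 4. It stood at 47.9, 43.2, 62.3 and 25.9 CPM in sunitinib tumors 5, 6, 8 and 12. It stood at 39.4, 90.7, 83.3 and 39.3 CPM in R+S tumors 4, 5, 7 and 10. All R+S tumors were above all control tumors, whereas sunitinib tumor 12 lay among the control tumors. R+S tumors 5 and 7 stood well above R+S tumors 4 and 10, and the latter were below sunitinib tumors 5, 6 and 8. The difference to control was 0.64 ± 0.31 for sunitinib and 1.13 ± 0.32 for R+S, and the R+S to sunitinib difference was 0.49 ± 0.31 (log2). Fibroblast and pericyte markers summed to 751 to 1556 CPM in control, 935 to 1238 CPM in sunitinib and 676 to 971 CPM in R+S tumors. Of these 12 markers, 0 were higher and 2 lower in sunitinib than in control, and 0 were higher and 1 lower in R+S than in control (edgeR, adjusted p under 0.05). Single markers went different ways, and 3 of the 12 had a positive log2 fold change in R+S against control (median -0.58 over the 12). Acta2, a smooth muscle actin named after its values had been seen, went against this median. It averaged 46.1 ± 16.1 CPM in control and 120 ± 70.9 CPM in R+S tumors (SD, n = 4 each) and did not pass the test. The part of these cells in the Igfbp5 difference was not tested.

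The promoters of these 2 binding protein genes are shown because their treated group means differed from control in opposite directions. For Igfbp5, the sunitinib group overlapped the control group. Both windows hold the 250 bases before the transcript start, on the minus strand (RefSeq, GRCm38.p6). Of the 9 genes, 7 were found in the promoter table, with 10 windows, 4 of them of Igf2. H19 and Insr were not matched. Capitals mark GCGTG or its reverse complement CACGC, or ACGTG or its reverse complement CACGT, searched on both strands, which are the core letters of the hypoxia response element.
Igfbp3 (chr11:7213924-7214173): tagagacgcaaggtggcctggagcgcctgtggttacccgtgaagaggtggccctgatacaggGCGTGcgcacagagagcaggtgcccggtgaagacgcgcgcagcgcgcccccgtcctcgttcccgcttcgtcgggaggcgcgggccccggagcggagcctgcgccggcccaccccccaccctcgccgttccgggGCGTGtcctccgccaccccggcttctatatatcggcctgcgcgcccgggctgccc
Igfbp5 (chr1:72874866-72875115): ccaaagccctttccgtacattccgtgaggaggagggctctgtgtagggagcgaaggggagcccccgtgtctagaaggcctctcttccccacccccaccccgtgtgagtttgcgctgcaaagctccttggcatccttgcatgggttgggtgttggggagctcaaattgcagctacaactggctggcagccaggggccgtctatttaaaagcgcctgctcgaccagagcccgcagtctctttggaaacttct
The Igfbp3 window holds GCGTG 2 times, and the Igfbp5 window holds neither motif. Counted in the same way, either motif occurs 6 times in the Igf2r window, 4 in Igf2bp2, 3 in Igf1r and 1 in Igf1. Of the 4 Igf2 windows, 1 holds 1 match and the others hold none. Among 32851 windows of the same length, 28.2% hold GCGTG, 16.6% hold ACGTG and 38.6% hold either. The bases G and C make up 73.2% of the Igfbp3 window and 58.8% of the Igfbp5 window, and the shares are not matched for this. A match describes the letters only, and a window without one says nothing of the factor.

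Igf2bp2 (ENSMUSG00000033581, chromosome 16), which encodes a protein that binds Igf2 and other mRNAs, was barely detected, with 1 to 27 reads per tumor. Its level ranged from 0.028 to 0.28 CPM in control tumors, from 0.11 to 0.75 CPM in sunitinib tumors and from 0.11 to 0.16 CPM in R+S tumors. Igf2bp2 passed the filter through sunitinib tumors 5, 6 and 12 and control tumor 1, with 12, 27, 9 and 13 reads. No other tumor had more than 6 reads. The filter thus kept this gene mainly through the group where it was highest, and nothing is read from its differences. The sunitinib and control groups overlapped, although 3 of the 4 sunitinib tumors lay above all control tumors. The highest value was that of sunitinib tumor 6. The sunitinib to control difference of 1.43 ± 0.65 (log2) was 0.79 ± 0.62 without that tumor, and the R+S to sunitinib difference of -1.31 ± 0.65 was -0.68 ± 0.62. The related Igf2bp1 and Igf2bp3 did not pass the filter.

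Ordered by level per kilobase of exon, the control tumors had Igf2 first at 293 CPM, then Igfbp3 at 45.5, Igf2r at 16.5, Insr at 6.24, Igfbp5 at 4.80, Igf1 at 1.56, Igf1r at 1.23, H19 at 0.27 and Igf2bp2 at 0.017 CPM. Neighbours in this order did not overlap over the 4 tumors, apart from Insr with Igfbp5 and Igf1 with Igf1r. In R+S tumors, Igfbp3 took the fifth place at 4.90 CPM, behind Igf2, Igf2r, Igfbp5 and Insr. It also took the fifth place in sunitinib tumors, at 3.80 CPM per kilobase, and there 6 of the 8 pairs of neighbours overlapped, Igf2 with Igf2r through sunitinib tumor 6. With the longest transcript as length, Insr and Igfbp5 changed places in both treated groups and the order was otherwise the same.

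Markers of pancreatic acinar cells, which are not part of the tumor lineage, differed strongly between the groups. Summed over 26 markers they ranged from 41.8 to 146 CPM in control tumors, from 13738 to 49262 CPM in sunitinib tumors and from 3635 to 19826 CPM in R+S tumors, and 25 of 26 rose in each treated group. Ptf1a, an acinar transcription factor, had 0 reads in all control tumors. Macrophage markers summed to 658 to 932 CPM in control, 294 to 878 CPM in sunitinib and 433 to 645 CPM in R+S tumors. The acinar level and the treatment cannot be told apart between control and treated tumors. With an acinar score as covariate, the log2 fold change of Igfbp3 was -3.20 ± 1.70 for sunitinib and -2.90 ± 1.42 for R+S against control, and that of Igf1r was 0.90 ± 0.26 for R+S against sunitinib. Total counts per tumor were 31872342 to 44215054.

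Of 32 further ligands, receptors, binding proteins, proteases, adaptors and mRNA-binding proteins of the pathway, 26 passed the filter. In sunitinib against control, 0 were higher and 1 was lower, with a median log2 fold change of 0.02 beside 0.03 for all genes. R+S against control gave 0 higher and 2 lower, with a median of -0.09 beside 0.01 for all genes. R+S against sunitinib gave 0 higher and 1 lower, with a median of -0.01 beside -0.02. The counts of 1, 2 and 1 of 26 stand beside 4.48%, 4.16% and 7.21% of all genes, and nothing particular to the pathway is read from them.

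The binding protein gene Igfbp7, also known as a product of vessel cells, fell in both treated groups. It stood at 150, 162, 213 and 161 CPM in control tumors 1 to 4. It stood at 61.6, 51.8, 65.5 and 73.6 CPM in sunitinib tumors 5, 6, 8 and 12. It stood at 80.6, 128, 93.9 and 50.2 CPM in R+S tumors 4, 5, 7 and 10. No treated tumor reached the lowest control tumor. The log2 fold change to control was -1.44 ± 0.24 for sunitinib (edgeR adjusted p = 0.00436) and -0.96 ± 0.24 for R+S (edgeR adjusted p = 0.0457). The first call held in all 12 fits that left out 1 tumor, and the second was lost in 9 of the 12, with an adjusted p of up to 0.148. With the acinar level as a covariate, neither passed, with log2 fold changes of -0.26 and 0.04. The acinar level does not overlap between control and treated tumors, and with it 0 of all genes passed in either comparison with control. Not passing therefore says nothing particular to Igfbp7.

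Igfbp2, a binding protein gene active in fetal tissues, fell in R+S tumors, from 10.5 ± 5.04 CPM in control to 2.51 ± 1.26 CPM (SD, n = 4 each). The log2 fold change was -2.07 ± 0.52 (edgeR adjusted p = 0.0477), and the call was lost in 9 of 12 fits that left out 1 tumor (adjusted p of up to 0.144). With the acinar covariate, the log2 fold change of Igfbp2 was -0.16 and did not pass (edgeR adjusted p = 0.9998), but 0 of all genes did in this comparison. Htra1, a secreted serine protease that can cleave IGF-binding proteins, was lower in R+S than in sunitinib tumors, at 3.75 ± 0.85 against 9.66 ± 4.19 CPM. Its log2 fold change was -1.36 ± 0.33 (edgeR adjusted p = 0.0355), and the call was lost in 7 of 12 fits without 1 tumor (adjusted p of up to 0.109) and with the acinar covariate (log2 fold change -1.16, edgeR adjusted p = 0.123). The insulin receptor substrates Irs1 and Irs2, which couple the receptors to downstream kinases, did not pass the test in any comparison. Irs2 stood at 20.1 ± 2.35 CPM in control, 29.7 ± 20.2 CPM in sunitinib and 40.2 ± 8.32 CPM in R+S tumors.

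**Figure D5:**
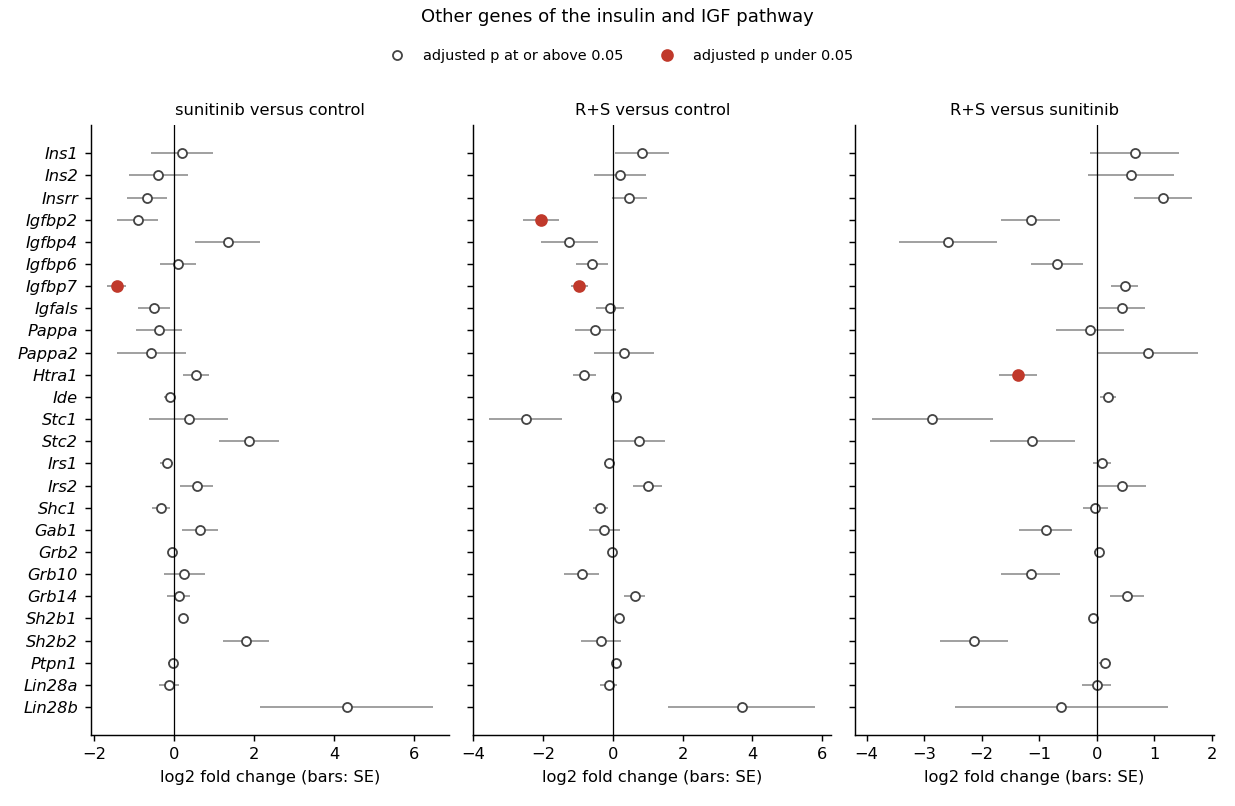
Log2 fold changes with standard errors of the 26 other pathway genes that passed the filter, in the 3 comparisons, where filled points have an edgeR adjusted p under 0.05. The filled points are Igfbp7 for sunitinib against control, Igfbp7 and Igfbp2 for R+S against control, and Htra1 for R+S against sunitinib.

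Sunitinib tumor 6 was often at an extreme, over all genes and in the pathway. It was the highest of all 12 tumors for 22.6% of all 16645 genes and the lowest for 22.6%. Among the 26 pathway genes it was the highest for 9 (34.6%) and the lowest for 7 (26.9%), and the difference of these shares was not tested. Sunitinib tumor 12 was the highest for 21.3% of all genes and for 2 of the 26 (7.69%), and the lowest for 20.9% and for 3 of the 26 (11.5%). Igfbp1, a binding protein gene known for its expression in liver, had 741 reads in sunitinib tumor 6 and 0 or 1 read in each of the other 11 tumors, and did not pass the filter. Igfbp4, another secreted binding protein, stood at 437 CPM there against 15.6 to 71.5 CPM elsewhere. Insrr, the insulin receptor-related receptor, stood at 60.4 CPM there against 537 to 1202 CPM elsewhere. Igfbp1, Igfbp4 and Insrr were named after their values had been seen.

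Of 24 imprinted genes outside the Igf2 and H19 pair, 22 were in the tables and 19 passed the filter, and 9, 6 and 10 of these had a positive log2 fold change in the 3 comparisons. For sunitinib against control, 0 of the 19 passed the edgeR test at an adjusted p under 0.05, 4 had an unadjusted p under 0.05, and DESeq2 called 0. Against control, edgeR called 0 in R+S tumors, 2 had an unadjusted p under 0.05, and DESeq2 called 1. Relative to sunitinib, 1 was lower in R+S, namely Mest, an imprinted gene of mesoderm, at 0.12 ± 0.09 against 1.41 ± 1.54 CPM. The counts of 0, 0 and 1 of 19 stand beside 4.48%, 4.16% and 7.21% of all genes. The log2 fold change of Mest was -3.54 ± 0.97 (edgeR adjusted p = 0.0494), and the call was lost in 10 of 12 fits that left out 1 tumor (adjusted p of up to 0.115). Sunitinib tumor 6 held the highest Mest level, 3.45 CPM, and without it the log2 fold change was -2.61 and did not pass (edgeR adjusted p = 0.0725). Of the 19 genes, sunitinib tumor 12 had the highest level of 1 and the lowest level of 5 (26.3%). Sunitinib tumor 6 had the highest level of 7 of the 19 genes and the lowest of 7, or 36.8% each, beside 22.6% each over all genes. Peg10, a paternally expressed gene derived from a retrotransposon, stood there at 5173 CPM against 0.81 to 9.88 CPM in the other 11 tumors, and its neighbour Sgce at 73.3 CPM against 1.66 to 3.06 CPM. Nnat, another paternally expressed gene, was 27.7-fold below its lowest level elsewhere, where it ranged from 692 to 4951 CPM. Peg10, Sgce and Nnat were likewise named after their values had been seen.

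Around Igf2 and H19 on chromosome 7, 23 neighbouring genes were listed, of which 22 were in the tables and 15 passed the filter. For sunitinib against control, 1 was higher and 1 was lower. Ctsd, which encodes the lysosomal protease cathepsin D, rose from 611 ± 89.7 to 1026 ± 230 CPM (log2 fold change 0.75 ± 0.18, edgeR adjusted p = 0.0320). Tspan32, a tetraspanin gene of blood cells, fell from 0.81 ± 0.35 to 0.24 ± 0.08 CPM (log2 fold change -1.72 ± 0.37, edgeR adjusted p = 0.0199). The call was lost in 9 of 12 fits that left out 1 tumor for Ctsd (adjusted p of up to 0.109) and in 3 of 12 for Tspan32 (adjusted p of up to 0.0535). In R+S against control, edgeR called 0 neighbours, 5 had an unadjusted p under 0.05, and DESeq2 called 2. In R+S against sunitinib, Cars, a cysteinyl-tRNA synthetase gene, was lower at 77.4 ± 13.8 against 130 ± 33.1 CPM (log2 fold change -0.75 ± 0.20, edgeR adjusted p = 0.0468), a call lost in 10 of 12 such fits (adjusted p of up to 0.118). With the acinar covariate, the log2 fold changes of Ctsd, Tspan32 and Cars were 0.64, -3.92 and -0.87, and none passed. With this covariate, 0 of all genes passed for sunitinib against control and 236 for R+S against sunitinib. Over all genes, 4.48%, 4.16% and 7.21% passed in the 3 comparisons in turn. Nothing particular to the locus is read from the calls among these 15.

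Igf2os was lower in every sunitinib tumor than in every control tumor, by a narrow margin for the highest of them, and R+S tumors overlapped both groups. Igf2os did not pass the test in any comparison (edgeR adjusted p of 0.602, 0.886 and 0.658). These tests include sunitinib tumor 6, at 0.58 CPM, and each log2 fold change had an SE of 0.76. A test of Igf2os without that tumor is not reported here. The Igf2os level ranged from 57.9 to 73.0 CPM in control tumors, from 45.1 to 57.2 CPM in sunitinib tumors other than tumor 6, and from 35.0 to 66.8 CPM in R+S tumors. It had between 2.21 and 5.84 reads per 100 reads of Igf2. The exons of the 2 genes overlap over 1.71% of the Igf2 exon bases on opposite strands, and whether the counting used strand is not given in the sources used here.

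Other genes were compared with each of the 9, namely 12318, or 12319 for H19 and Igf2bp2, whose own mean log2 CPM was below 1. Those whose log2 CPM followed each of the 9 genes most closely over the 12 tumors were ranked by Pearson's r, without a test. For Igfbp3 they were Lama4 (r = 0.992), a laminin chain of vessel basement membranes, Sema3f (r = 0.981) and Ephb4 (r = 0.976), a receptor of venous endothelium. For Igf2 they were Fhdc1 (r = 0.986), Iapp (r = 0.984), which encodes the beta cell hormone amylin, and Tnfrsf11a (r = 0.982). The rank correlations of Igf2 with these were 0.81, 0.45 and 0.41, and sunitinib tumor 6 was by far the lowest for Igf2. Those of Insr were Akap13 (r = 0.977), Rbm26 (r = 0.973) and Cflar (r = 0.962), with rank correlations of 0.92 or more. Those of Igf1r were Rbm14, Trappc12 and Hist2h2be, with r of 0.885, 0.885 and 0.883, and those of Igf2r were Chic1 (r = 0.940), Selenot (r = 0.918) and Nhlrc3 (r = 0.908). For Igfbp5 they were Arntl (r = 0.886), Rexo1 (r = 0.858) and Epha7 (r = 0.839), and for Igf1 they were Bcat2 (r = 0.877), Adam8 (r = 0.844) and Taf15 (r = 0.828). For H19 they were Col16a1 (r = 0.932), Gpc2 (r = 0.903) and Stag3 (r = 0.899), and for Igf2bp2 they were Brat1 (r = 0.934), Cul7 (r = 0.929) and Ormdl3 (r = 0.926). The 12 points share the treatment groups, and these values rank genes by likeness of pattern only.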

How the data were processed

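RNA-seq was available for 12 tumors, grouped by the sample labels into 4 control, 4 sunitinib and 4 R+S tumors. The authors deposited raw counts of reads per Ensembl gene, 1 table per tumor, without normalization. Libraries were stranded and made from poly(A) RNA. The submitters' processing notes name cutadapt 1.2.1, TopHat2 2.0.9, HTSeq 0.5.4p3 and GRCm38. The counting options and the annotation release are not given in the sources used here. The 5 summary lines per table were left out; multiply aligned reads (21203479 to 48418780 alignments per tumor) had not been counted on genes, which lowers genes with close copies.

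Symbols, lengths and coordinates came from GENCODE M21 (37607 of 38924 identifiers matched). Counts were normalized by TMM and tested with edgeR 4.0.16 (quasi-likelihood F-test, robust; R 4.3.3), after filterByExpr (minimum count 10, minimum total count 15; 16645 genes), in 1 fit of 12 tumors with 3 groups. The paper's text names no test for RNA-seq. P-values were Benjamini-Hochberg adjusted over all genes tested within each comparison, with a threshold of 0.05. Standard errors were computed as the absolute log2 fold change over the root of F, and 2 was the prior count for log2 CPM. Depth was 31872342 to 44215054 counts per tumor (median 38526164). The fit was tested on simulated data.

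The 9 genes, the gene lists and the tests were chosen with earlier results of these data known. Named besides the 9 genes were, per list and comparison, up to 6 genes with the smallest adjusted p under 0.05, and for each of the 9 the 3 genes with the highest Pearson correlation of log2 CPM (mean log2 CPM of at least 1, no predicted genes); others are marked as named after their values were seen. Alternatives were DESeq2 1.42.0, library-size scaling, no filter, at least 10 counts in every tumor, only the 8 tumors compared, an acinar score of 26 genes as covariate, treated tumors summed where they share a label prefix, the longest transcript as length, and each tumor left out in turn. The paper's own comparisons were not used.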

Additional observations from a re-analysis of the deposited data

Results flagged for a closer look

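In groups of 4 tumors, a tumor was singled out when its gap to the nearest other tumor, divided by the range of the group, was above Dixon's critical value for 4 samples. This was done for the genes outside the 9 that the report names by their adjusted p, in 21 combinations of a gene and a group on each of 2 scales, normalized CPM and log2 CPM, and chance alone singles out about 1 in 20. Mest in control tumor 4 stood at 0.761 CPM, against 1.29 to 1.35 CPM in the other 3 control tumors, and passed on both scales, although it rests on 27 reads.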

How the results depend on the processing

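Of 184 log2 fold changes of the 9 genes under other settings, 2 took another sign, both of Igf2bp2, and of 324 with 1 tumor left out, 9 did, of Igf2, H19, Igf2r and Igf2bp2. With the acinar covariate, which does not overlap between control and treated tumors, Igfbp5 for sunitinib against control went to 1.12, Insr for R+S against control to 0.41, and Igf2bp2 to -2.21 (reversed) and -2.90 (R+S against control). Igfbp7 for R+S against control went to 0.043 (reversed). Leaving out 1 tumor moved Igf2bp2 for R+S against control between -0.19 and 0.83.

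Counts of called genes moved more. For sunitinib against control, 745 genes became 1477 (DESeq2), 408 (10 counts in every tumor), 380 (8 tumors compared) and 0 (acinar covariate, with 773 at an unadjusted p under 0.05), and 440 to 902 without 1 tumor. R+S against control gave 693, which became 1688 (DESeq2), 2557 (8 tumors) and 0 (acinar covariate, with 698 at an unadjusted p under 0.05), and 292 to 1627 without 1 tumor, the highest without sunitinib tumor 6. R+S against sunitinib gave 1200, which became 3045 (DESeq2), 501 (no filter), 3 (8 tumors) and 236 (acinar covariate), and 0 (without R+S tumor 5) to 2861 (without sunitinib tumor 5) without 1 tumor. The cause was not tested.

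Pathway genes called for sunitinib against control went from 1 to 3 with DESeq2 and with prefixes summed, and to 0 with the acinar covariate. Pathway genes called for R+S against control went from 2 to 7 (8 tumors), 1 (10 counts in every tumor, prefixes summed) and 0 (no filter, acinar covariate), and 0 to 5 without 1 tumor. Pathway genes called for R+S against sunitinib went from 1 to 2 (DESeq2, 10 counts in every tumor, prefixes summed) and 0 (no filter, 8 tumors, acinar covariate), and 0 to 4 without 1 tumor. Imprinted genes called went from 0 to 2 (prefixes summed) for sunitinib against control. Imprinted genes called for R+S against control went from 0 to 1 (DESeq2, prefixes summed) and 5 (8 tumors), and 0 to 3 without 1 tumor. Imprinted genes called for R+S against sunitinib went from 1 to 2 (DESeq2, prefixes summed) and 0 (library size, no filter, 10 counts in every tumor, 8 tumors, acinar covariate), and 0 to 4 without 1 tumor. Neighbours called for sunitinib against control went from 2 to 1 (10 counts in every tumor, prefixes summed) and 0 (8 tumors, acinar covariate), and 0 to 2 without 1 tumor. Neighbours called for R+S against control went from 0 to 2 (DESeq2) and 1 (8 tumors), and 0 to 1 without 1 tumor. Neighbours called for R+S against sunitinib went from 1 to 2 (DESeq2) and 0 (no filter, 8 tumors, acinar covariate), and 0 to 2 without 1 tumor.

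No paired analysis was possible because the groups share at most 1 replicate number. H19, Igf2bp2, Mest and Tspan32 rest on few reads, and groups of 4 tumors limit the precision.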
